A study of Mus musculus with 12 samples.

Results

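The proteasome is the barrel-shaped protease that degrades proteins tagged with ubiquitin. The genes described here were every row of the expression table whose symbol begins with Psm, a letter from a to g and a digit, provided that its mean over the 12 libraries was at least 0.5 FPKM (a count of sequenced fragments scaled by transcript length and library depth). The table held 17752 genes, of which 12744 reached that mean, 50 matched the symbol pattern, and 48 did both. The 2 that matched but lay under the limit were Psmb11, a catalytic subunit of the thymus, and the pseudogene Psmb7-ps2. By name 46 of the 48 are subunits, assembly factors or regulators of the proteasome. The other 2 were Psmc3ip, which encodes a protein of meiotic recombination, and Psme2b, a near copy of Psme2.

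RNA was taken from the extensor digitorum longus (EDL), a hind-limb muscle made mostly of fast fibres, of male C57BL/6J mice. From 8 weeks of age the mice either stayed sedentary or were trained by voluntary wheel running, with low-distance runners removed. Per the paper this lasted 8 weeks, and the muscle was taken after it. The paper adds that wheels were taken out of the cages for a set period before exercise tests and other endpoints. In strNrip1-/- mice a Cre recombinase under the muscle creatine kinase promoter deletes floxed Nrip1, the gene of the corepressor RIP140, in heart and skeletal muscle, so other cells of the EDL keep the gene. The WT mice, given as Ctrl in the labels, were littermates without the deletion. The 4 groups (labelled WT sedentary, labelled strNrip1-/- sedentary, labelled WT trained and labelled strNrip1-/- trained) held 3 libraries each, and the comparisons ask what the deletion and the training do to the muscle transcriptome, alone and together.

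A few facts of the libraries bear on every value below. Nrip1 lay between 14.9 and 20.7 FPKM in the 6 libraries labelled strNrip1-/- and between 2.53 and 4.76 FPKM in the 6 labelled WT, which goes against the direction that a deletion would give, although a value per gene does not resolve the deleted part. Every genotype direction here therefore rests on the labels, and groups are named as labelled. The depth, recovered from the steps between low values, was 20.2 to 28.9 M fragments a library, and 3 fragments over a kilobase of effective length correspond to 0.104 to 0.149 FPKM. Fast-muscle markers were abundant in every library, with a sum over 10 genes of 112573 to 179877 FPKM, and none was at 0.

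The 20S core of the proteasome is a stack of 4 rings. The outer pair is built from the alpha subunits (Psma1 to Psma7), which gate the entry, and the inner pair from the beta subunits, of which Psmb5, Psmb6 and Psmb7 carry the constitutive proteolytic sites. Interferon induces Psmb8, Psmb9 and Psmb10, which take the places of Psmb5, Psmb6 and Psmb7 and give the immunoproteasome. The 19S cap, with its ATPases (Psmc) and non-ATPase subunits (Psmd), binds and unfolds ubiquitinated substrates, whereas Psme1 and Psme2 (PA28 alpha and beta), Psme3 (PA28 gamma) and Psme4 (PA200) are alternative caps that work without ubiquitin. In skeletal muscle this system is best known for degrading myofibrillar proteins in atrophy.

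Genes of the core and the cap are known to share promoter elements, among them the antioxidant response element that Nfe2l1 binds, so the bases before the start site are shown for the members on which the comparisons turn. RefSeq promoter windows (GRCm38.p6, 250 bases before to 50 after an annotated start) existed for 41 of the 48 members, in 44 windows. The first sequence is the 120 bases before the start of Psme4, the member with the largest called decrease between genotype labels, at chr11:30771606-30771725 on the plus strand. It ends before the GENCODE start of the gene, which lies 49 bases before the RefSeq start. The second shows the CCAAT box (CCAAT or ATTGG, here in capitals) of Psmb9, the 1 member called higher, at chr17:34187331-34187350 on the minus strand. It lies just before the RefSeq start but inside the longest GENCODE form of the gene. The last 2 show the antioxidant response element (TGACNNNGC) in capitals before 2 constitutive catalytic genes, chr14:54618022-54618054 on the minus strand for Psmb5 and chr11:70525336-70525356 on the plus strand for Psmb6.
Psme4: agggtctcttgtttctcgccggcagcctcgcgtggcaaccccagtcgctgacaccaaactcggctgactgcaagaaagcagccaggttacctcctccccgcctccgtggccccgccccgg
Psmb9: gcgcagccgctgATTGGaaa
Psmb5: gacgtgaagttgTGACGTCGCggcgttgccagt
Psmb6: gactaaagagagTGACGGAGC

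Both strands were searched. The stretch of Psme4 held none of the 3 motifs searched, whereas the CCAAT box of Psmb9 began 8 bases before its RefSeq start. Over the whole windows the antioxidant response element occurred in 6 of 44 member windows (13.6%) and in 12.4% of all 32851 windows, that of Psme4 not lying before its start. The interferon regulatory factor element (GAAA, any 2 bases, GAAA) occurred in 5 (11.4%) against 3.44%, and the CCAAT box in 14 (31.8%) against 37.4%. The 5 genes with the interferon element were Psmb3, Psmd4, Psmd9, Psme1 and Psmg4, and the 3 immunoproteasome catalytic genes were not among them. The matches of Psme1 and Psmg4 did not lie wholly before the start. No match of one motif overlapped a match of another upstream of a member's start. These are letter matches, and binding was not measured.

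Transcript levels differed widely between the members, also between subunits that the core holds in equal numbers, such as those of the alpha ring. The constitutive catalytic genes were among the highest, with means over the 12 libraries of 256 FPKM for Psmb7, 219 FPKM for Psmb6 and 154 FPKM for Psmb5. The immunoproteasome genes averaged 20.8 FPKM (Psmb10), 6.43 FPKM (Psmb8) and 2.13 FPKM (Psmb9), the last being the lowest of the 46. Within the alpha ring the means ran from 26.2 FPKM for Psma2 to 161 FPKM for Psma6, a 6.13-fold range.

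The noncatalytic beta subunits ran from 53.4 FPKM (Psmb1) to 142 FPKM (Psmb3), the 19S ATPases from 49.9 FPKM (Psmc6) to 197 FPKM (Psmc3), and the 19S non-ATPase subunits from 37.7 FPKM (Psmd14, the deubiquitinase of the lid) to 116 FPKM (Psmd4, a ubiquitin receptor). Assembly factors were low: Psmg1 to Psmg4, the chaperones of the 20S core, averaged 7.14 FPKM (Psmg3) to 19.05 FPKM (Psmg2), and Psmd5, Psmd9 and Psmd10, chaperones of the 19S base, 3.59, 9.27 and 3.91 FPKM in that order. Of the 48 members 36 averaged 20 FPKM or more and 5 averaged under 5 FPKM.

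**Figure D1:**
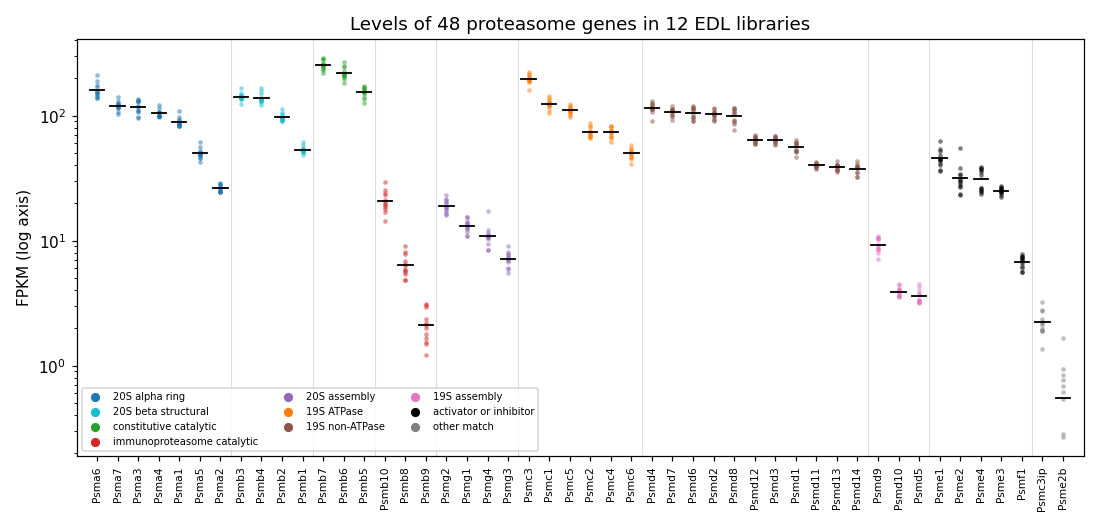
FPKM (log axis) of the 48 members, grouped by role, with 1 point for each of the 12 libraries and a bar at the mean. The constitutive catalytic genes (means of 154 to 256 FPKM) lie among the highest, with Psmc3 and Psma6 between Psmb6 and Psmb5, and the immunoproteasome genes at 2.13 to 20.8 FPKM. Values of 0, which occurred for Psme2b in 3 libraries, are not drawn.

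The order of the members was nearly the same in every library. Spearman's rho of the 48 levels lay between 0.972 and 0.997 over the 66 pairs of libraries, a description across genes that share each library's depth. Spread within groups was also small. The median residual SD of log2(FPKM + 0.5) was 0.128 over the members and 0.171 over the 12744 genes.

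Genotype differences were tested with limma on log2(FPKM + 0.5) over all 12744 genes, and a gene was called when its Benjamini-Hochberg adjusted p was under 0.05 and its fold change above 1.2. Averaged over training, 4 of 48 members (8.33%) were called between the genotype labels, where 8.8% of all genes were called. Psme4, Psma3 and Psmd8 were lower and Psmb9 was higher in the libraries labelled strNrip1-/-. Psmd6 and Psmd1 also passed the adjusted p but changed by less than 1.2-fold, which makes 6 members (12.5%) against 11.1% of all genes. The share of members past the test was thus near the background. At an unadjusted p under 0.05 there were 14 members (29.2%) beside 24.1% of all genes. The median log2 fold change of the 48 was -0.020, with 20 members above and 28 below 0, beside 0.0034 over all genes. That median turned to 0.034 with equal sums over nuclear genes (20 of 48 below 0, median of all genes 0.055) and was -0.064 with equal sums over all genes (36 below 0). Single libraries moved it too. Without replicate 3 of the labelled strNrip1-/- sedentary group it was 0.022 (23 below 0), and without replicate 2 of that group -0.061 (34 below 0).

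Psme4 had the smallest adjusted p of the family. It encodes PA200, the large nuclear activator that caps the 20S core, and lies at chr11:30771726-30880361 on the plus strand (GRCm38, GENCODE M21). Its level was 38.7, 35.4 and 36.7 FPKM in the labelled WT sedentary libraries and 24.7, 23.4 and 26.6 FPKM in the labelled strNrip1-/- sedentary ones. After training it was 37.2, 33.3 and 37.9 FPKM in those labelled WT and 25.6, 26.5 and 25.2 FPKM in those labelled strNrip1-/-. The highest library labelled strNrip1-/- was below the lowest labelled WT, and within each label the sedentary and trained libraries overlapped.

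Psme4 fell by 0.52 on the log2 scale between labels (SE 0.0519, 95% interval -0.63 to -0.40, limma adjusted p = 1.06e-04). The decrease was 0.56 in sedentary (SE 0.0734, adjusted p = 0.00198) and 0.48 in trained muscle (SE 0.0734, adjusted p = 0.00416). No difference between these was detected (interaction 0.08, SE 0.104, adjusted p = 0.886). In sedentary muscle it was the only one of 48 members called (2.08%, beside 3.51% of all genes, and 1.59% in that direction), and in trained muscle it was called with Psmd6 (4.17%, beside 5.98% of all genes, and 2.77% in that direction). At an unadjusted p under 0.05 there were 14 members in sedentary muscle (29.2%, beside 16.3% of all genes) and 6 in trained muscle (12.5%, beside 21.1% of all genes). Both within-condition calls of Psme4 were lost when libraries were rescaled to an equal sum over nuclear genes (adjusted p = 0.0632 and 0.0754), and the trained one also with an equal sum over all genes (adjusted p = 0.0997). The averaged difference was called under each of those scalings.

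None of the other activators was called. Psme1, PA28 alpha, had lowest, median and highest values of 36.1, 40.8 and 45.4 FPKM over the 6 libraries labelled WT and of 44.0, 50.6 and 62.9 FPKM over the 6 labelled strNrip1-/-, so the sets overlapped narrowly. Its log2 difference of 0.31 (SE 0.0935) had a limma adjusted p of 0.0566, and it was called with a stricter filter, under the 3 scalings tried and with length and GC trends removed, with adjusted p from 0.00327 to 0.0377. It was also called without replicate 3 of the labelled strNrip1-/- sedentary group (0.38, adjusted p = 0.0150). Psme2, PA28 beta, differed by 0.22 (adjusted p = 0.385), with 1 labelled strNrip1-/- sedentary library at 55.6 FPKM and the remaining 11 between 23.3 and 38.0 FPKM. Psme3, the nuclear PA28 gamma, ranged only from 22.2 to 27.6 FPKM and differed by -0.08 (95% interval -0.20 to 0.032). Psmf1, the inhibitor PI31, ranged from 5.63 to 7.86 FPKM with a difference of 0.08 (adjusted p = 0.627).

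The 19S cap leaned one way. In the averaged comparison 10 of the 11 non-ATPase subunits and 5 of the 6 ATPases were lower in the libraries labelled strNrip1-/-, with median log2 fold changes of -0.13 and -0.092, beside 49.2% of all genes below 0 and a median of 0.0034. Between 13 and 17 of the 17 were below 0 under the 3 scalings tried. In sedentary muscle all 17 were below 0 (medians -0.17 and -0.063, beside 50.2% of all genes), and in trained muscle 14 of 17 (medians -0.072 and -0.060, beside 49% of all genes). Under the 3 scalings these counts were 11 to 17 and 9 to 15. The cap genes also moved together within libraries. In labelled strNrip1-/- sedentary replicates 1, 2 and 3, 5, 11 and 1 of the 17 lay above their own means (median deviations -0.088, 0.037 and -0.14). The counts were not repeated with 1 library left out. Over all 48 members the sedentary median of -0.020 turned to 0.037 without replicate 3 (16 below 0). Without replicate 2 it was -0.094 (36 below 0). In the averaged comparison Psmd6, Psmd1 and Psmd8 passed the adjusted p, and the other 14 cap genes did not.

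Psmd6, a subunit of the 19S lid (chr14:14112174-14120984, minus strand), had lowest, median and highest levels of 108, 114 and 120 FPKM over the 6 libraries labelled WT and of 90.2, 96.3 and 102 FPKM over the 6 labelled strNrip1-/-. The sets did not overlap. It fell by 0.26 (SE 0.0420, limma adjusted p = 0.00264), by 0.32 in trained muscle, where it was called (adjusted p = 0.0102), and by 0.19 in sedentary muscle, where it was not (adjusted p = 0.111). The trained call was lost without replicate 3 of the labelled strNrip1-/- trained group (adjusted p = 0.0519) and with an equal sum over all genes (adjusted p = 0.0558).

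Psmd1, the scaffold of the 19S base (chr1:86064387-86139151, plus strand), likewise did not overlap, with 58.5, 60.4 and 64.2 FPKM as the lowest, median and highest labelled WT values and 47.1, 51.8 and 53.7 FPKM as the labelled strNrip1-/- ones. It fell by 0.24 (SE 0.0452, limma adjusted p = 0.00598), a change under 1.2-fold. With libraries rescaled to an equal sum over nuclear genes the adjusted p was 0.216. The annotation puts 252 exonic bases of Htr2b on the opposite strand inside it, and the library kit did not keep strand.

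Psmd8, also of the lid (chr7:29174188-29180701, minus strand), was lower with an overlap. Its lowest, median and highest values were 103, 111 and 116 FPKM in libraries labelled WT and 77.4, 89.4 and 105 FPKM in those labelled strNrip1-/-, and only 1 of the latter reached the labelled WT range. It fell by 0.30 (SE 0.0668, limma adjusted p = 0.0139). The library labelled strNrip1-/- sedentary replicate 1 was the lowest, and without it the decrease was 0.25, below the fold limit. With equal sums over nuclear genes it was 0.24, also below that limit.

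The 20S alpha ring held the remaining decrease. Psma3 (chr12:70974621-70996347, plus strand) had lowest, median and highest levels of 120, 132 and 136 FPKM in libraries labelled WT and of 95.9, 108 and 117 FPKM in those labelled strNrip1-/-, without overlap. It fell by 0.30 (SE 0.0563, limma adjusted p = 0.00616), with similar differences of -0.30 in sedentary and -0.29 in trained muscle that did not pass on their own (adjusted p = 0.0670 and 0.0573). Its 6 partners in the ring, which are assembled with it in equal numbers, lay between -0.047 and 0.050, with adjusted p of 0.663 or more. Without replicate 3 of the labelled strNrip1-/- sedentary group the decrease of Psma3 was 0.26, and with equal sums over nuclear genes 0.24, both under the fold limit.

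Psma3, Psmd1, Psmd6 and Psme4 were thus the 4 members (8.33%) whose 6 libraries labelled strNrip1-/- all lay below the 6 labelled WT, beside 3.23% of all genes. No member lay wholly above, beside 2.97% of all genes. Of 3 against 3 sedentary libraries, 7 members were wholly lower (14.6%, beside 10.9% of all genes) and 4 wholly higher (8.33%, beside 9.79% of all genes). Of the trained ones 7 were wholly lower (14.6%, beside 13.4% of all genes) and 3 wholly higher (6.25%, beside 13.9% of all genes). Psmb9 was the 1 member wholly higher in both states, and Psma3, Psmd1, Psmd6 and Psme4 were wholly lower in both. The share of all genes wholly higher or wholly lower in both states was not counted, so these cannot be set against a background.

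**Figure D2:**
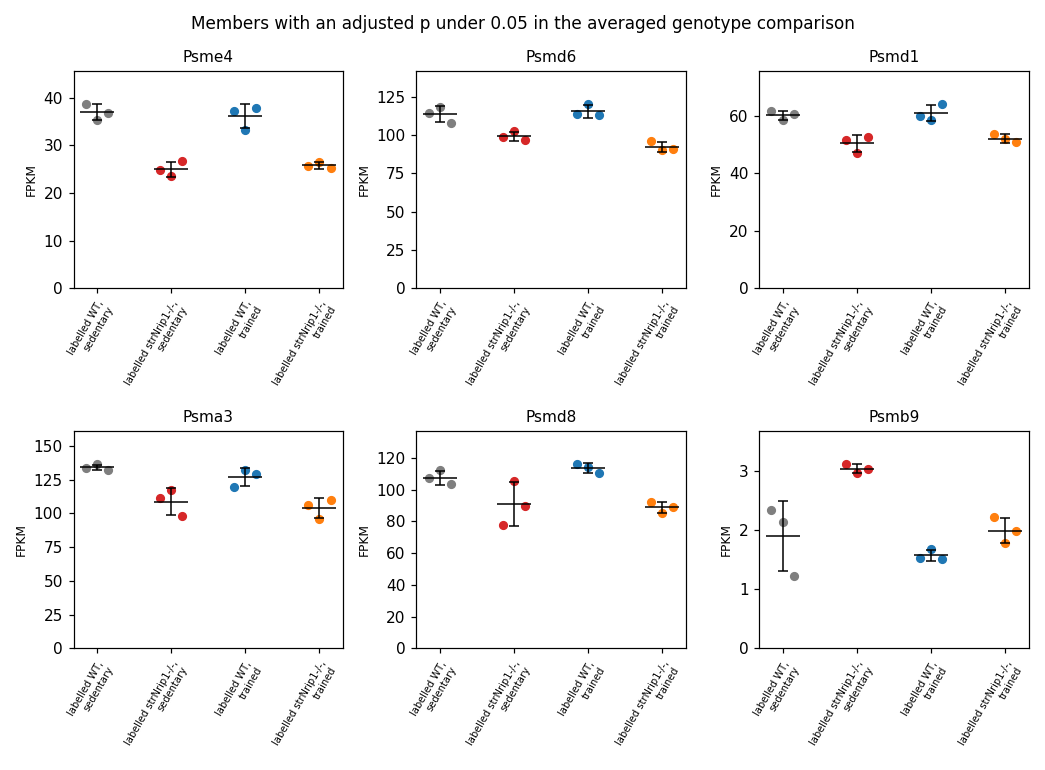
FPKM of the 6 members with an adjusted p under 0.05 in the averaged genotype comparison, with 1 point for each library and a bar with whiskers at the mean and SD of 3 libraries. Psme4, Psmd6, Psmd1 and Psma3 do not overlap between the genotype labels, whereas Psmd8 and Psmb9 do.

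No difference between labels was detected for the constitutive catalytic genes in the main fit. Psmb5 ranged from 136 to 170 FPKM in libraries labelled WT and from 127 to 171 FPKM in those labelled strNrip1-/-, a log2 difference of 0.0026 with a 95% interval of -0.16 to 0.17. Psmb6 differed by -0.011 (95% interval -0.21 to 0.19) and Psmb7 by -0.082 (95% interval -0.24 to 0.075). The signs of Psmb5 and Psmb6 turned with the scaling. Psmb7 stayed below 0, and its limma adjusted p went down to 0.0206 among the alternatives. With 1 library left out that p was 0.223 or more, and Psmb7 was called under no alternative. The 4 noncatalytic beta genes Psmb1 to Psmb4 lay between -0.0066 and 0.013.

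The 3 immunoproteasome genes all lay above 0, and 1 of them was called. Psmb9 (chr17:34181987-34187764, minus strand) measured 2.34, 2.13 and 1.22 FPKM in labelled WT sedentary and 3.11, 2.96 and 3.04 FPKM in labelled strNrip1-/- sedentary libraries. In trained muscle it measured 1.54, 1.67 and 1.504 FPKM in libraries labelled WT and 2.22, 1.78 and 1.98 FPKM in those labelled strNrip1-/-. Labels did not overlap within either training state, but the labelled WT sedentary libraries overlapped the labelled strNrip1-/- trained ones.

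Psmb9 rose by 0.43 (SE 0.119, 95% interval 0.17 to 0.69, limma adjusted p = 0.0398), by 0.59 in sedentary (adjusted p = 0.0865) and 0.26 in trained muscle (adjusted p = 0.411). This call was close to the threshold. It was lost in 9 of the 12 fits that left out 1 library (adjusted p up to 0.0863), with log2 differences of 0.32 to 0.50, and also without the filter on low values (adjusted p = 0.0622) and with an equal sum over all genes (adjusted p = 0.0845). Psmb9 also shares 212 exonic bases with Tap1, a peptide transporter on the opposite strand whose level was 0.952 to 2.08 FPKM in libraries labelled WT and 1.51 to 2.29 FPKM in those labelled strNrip1-/- (log2 difference 0.31, adjusted p = 0.110), and reads of that stretch cannot be assigned to either strand.

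Psmb8, which replaces Psmb5, ranged from 4.87 to 8.09 FPKM in libraries labelled WT and from 5.81 to 9.07 FPKM in those labelled strNrip1-/-, a difference of 0.24 (SE 0.113, limma adjusted p = 0.217). Psmb10, which replaces Psmb7, ranged from 14.4 to 25.2 FPKM and from 17.1 to 29.6 FPKM, a difference of 0.15 (adjusted p = 0.611). Without replicate 2 of the labelled strNrip1-/- sedentary group that difference was 0.034, without replicate 3 of the labelled WT sedentary group 0.054 and without its replicate 2 0.25. Both overlapped between labels over all libraries. In trained muscle Psmb8 did not, with 4.87 to 5.46 FPKM in libraries labelled WT and 5.87 to 6.94 FPKM in those labelled strNrip1-/-. There 13.9% of all genes were wholly higher.

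Set against the constitutive genes, the immunoproteasome transcripts made a small fraction. The summed FPKM of Psmb8, Psmb9 and Psmb10 was 4.34%, 5.04% and 3.44% of that of Psmb5, Psmb6 and Psmb7 in labelled WT sedentary, and 4.93%, 5.56% and 4.90% in labelled strNrip1-/- sedentary libraries. It was 4.71%, 4.02% and 4.12% in labelled WT trained and 5.16%, 4.74% and 5.04% in labelled strNrip1-/- trained libraries. The group means were 4.27% ± 0.798, 5.13% ± 0.372, 4.28% ± 0.375 and 4.98% ± 0.220 (SD, n = 3) in that order. The trained labels did not overlap and the sedentary ones did, through the library at 5.04%. A ratio within a library does not depend on scaling between libraries, and it is given with no test because it is a score over members. It does move with either sum. The labelled strNrip1-/- sedentary library at 4.90% had an immunoproteasome sum of 25.9 FPKM, below the labelled WT sedentary mean of 28.1 FPKM. Its constitutive sum, 530 FPKM, was the lowest of the 12 libraries. Psmb10, which was not called, made most of the immunoproteasome sum (means of 20.8 and 29.4 FPKM over the 12 libraries).

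By pairs, Psmb8 stood at 4.16% of Psmb5, Psmb9 at 0.981% of Psmb6 and Psmb10 at 8.13% of Psmb7 as means over the 12 libraries. The Psmb9 to Psmb6 ratio went from 0.848% ± 0.272 to 1.42% ± 0.279 between the sedentary labels and from 0.736% ± 0.0425 to 0.923% ± 0.124 between the trained ones (SD, n = 3).

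**Figure D3:**
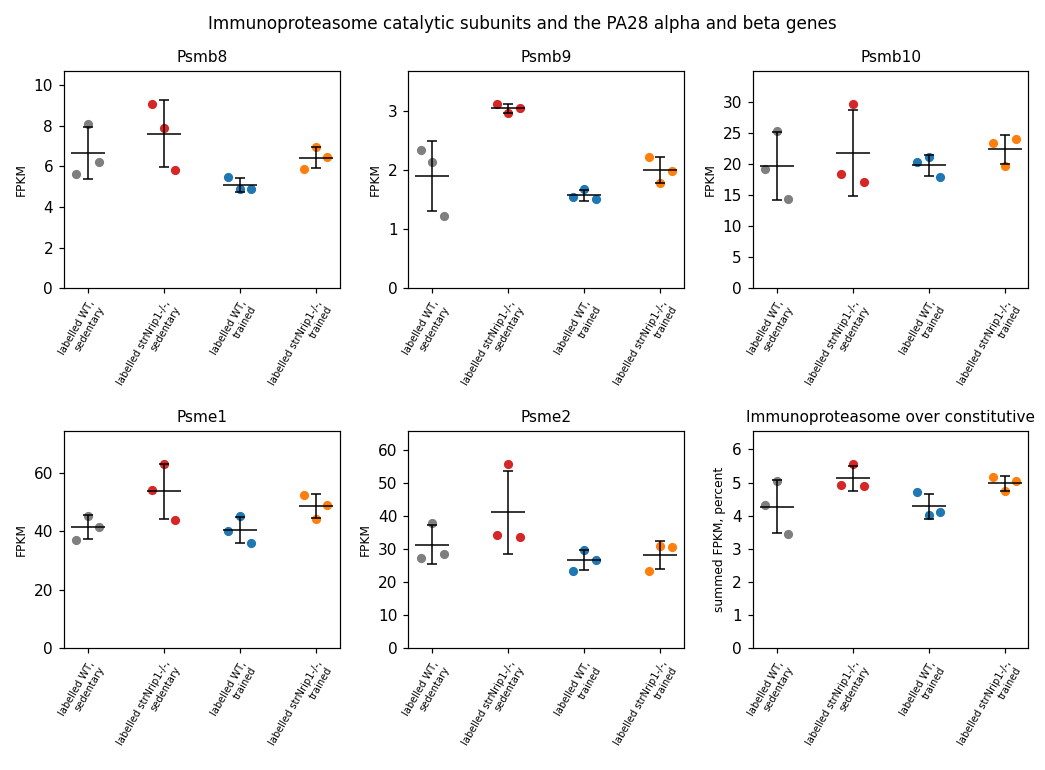
FPKM of Psmb8, Psmb9, Psmb10, Psme1 and Psme2 and, in the last panel, the summed FPKM of the 3 immunoproteasome genes as a percent of the 3 constitutive ones, with 1 point for each library and a bar with whiskers at the mean and SD of 3 libraries. Psmb9 is near 3 FPKM in the labelled strNrip1-/- sedentary libraries (2.96 to 3.11) and lower elsewhere.

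Because interferon induces these genes together with antigen presentation, a list of 19 such genes was read from the same fit. In the averaged genotype comparison 15 of 19 lay above 0 (median 0.15) and none was called, with 6 higher and 2 lower at an unadjusted limma p under 0.05. In trained muscle H2-K1, a class I heavy chain, was called higher (0.37, adjusted p = 0.0466). Under an equal sum over all genes in sedentary muscle, where the median of all genes moved to -0.14, 14 of the 19 lay below 0. Leukocytes are known to express immunoproteasome subunits without induction. Of 17 leukocyte markers 14 were tested, none was called (1 lower and 0 higher at an unadjusted p under 0.05) and their median was -0.029, and none was at 0 in any library. Their summed level was 143 to 178 FPKM in labelled WT sedentary, 131 to 173 FPKM in labelled strNrip1-/- sedentary, 116 to 143 FPKM in labelled WT trained and 126 to 137 FPKM in labelled strNrip1-/- trained libraries. Their part in the differences of Psmb8 to Psmb10 was not tested. In whole muscle, fewer cells of a type and less RNA per cell cannot be told apart.

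Other cell-type markers did move with the genotype label. Of 5 endothelial markers, all above 0, Cdh5 (0.28, limma adjusted p = 0.0308) and Tie1 (0.33, adjusted p = 0.00350) were called higher, with a summed level of 65.2 to 75.5 FPKM in the libraries labelled WT and 74.8 to 85.1 FPKM in those labelled strNrip1-/-. Of 10 fast-fibre markers, all below 0 (9 under quantile normalization), 5 were called lower (Actn3, Acta1, Myh4, Mylpf and Pvalb), and the summed level was 148296 to 179877 FPKM and 112573 to 151557 FPKM respectively. None of the fibroblast, Schwann cell, blood or tested adipocyte markers was called between labels (1 fibroblast marker lower, 1 blood and 1 adipocyte marker higher at an unadjusted limma p under 0.05). The part of these markers in the proteasome differences was not tested.

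The chaperones of the 20S core and of the 19S base showed no called difference. Psmg4 had lowest, median and highest values of 8.36, 9.84 and 11.6 FPKM in libraries labelled WT and 10.6, 11.1 and 17.2 FPKM in those labelled strNrip1-/- (difference 0.28, limma adjusted p = 0.181), the top value coming from the labelled strNrip1-/- sedentary replicate 2. Psmg3 differed by 0.21 (adjusted p = 0.193), Psmg2 by -0.11 (adjusted p = 0.501) and Psmg1 by -0.057 (adjusted p = 0.722). Psmd9 differed by -0.13, Psmd10 by 0.068 and Psmd5 by -0.027, with adjusted p of 0.433, 0.613 and 0.911 in that order.

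**Figure D4:**
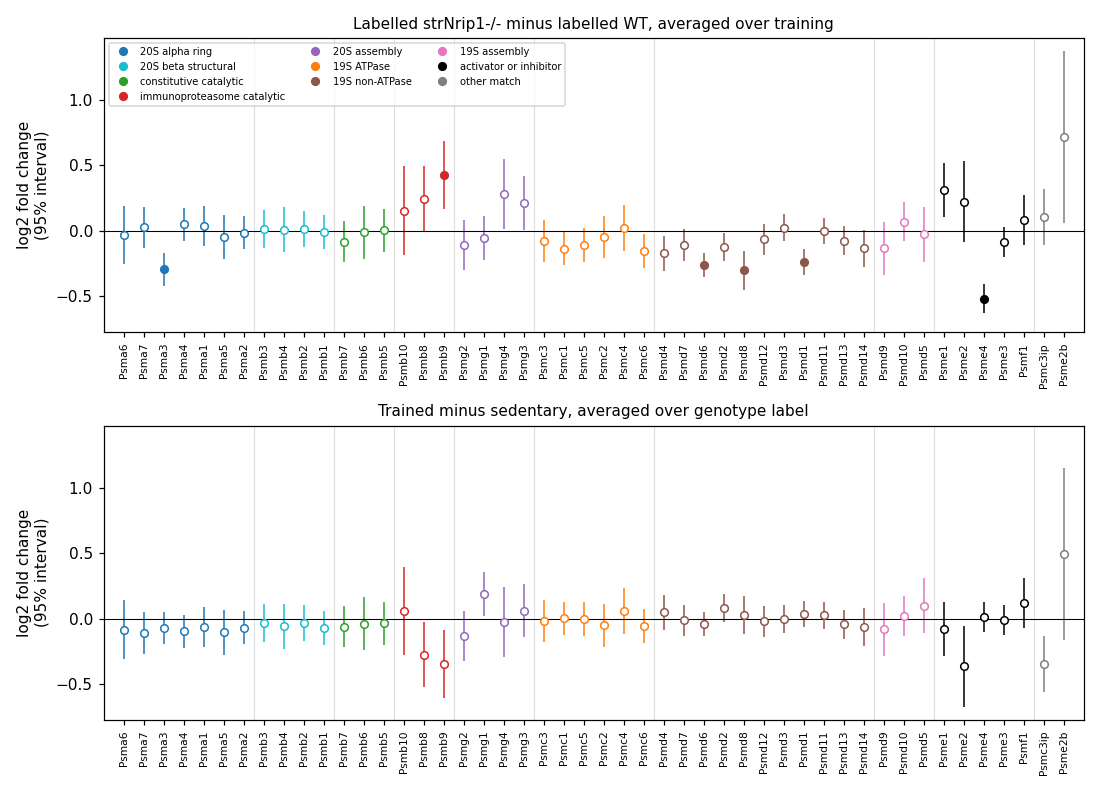
Log2 fold changes with 95% intervals of the 48 members, grouped by role, for the genotype label averaged over training (upper panel) and for training averaged over genotype label (lower panel). Filled points have an adjusted p under 0.05. The upper panel has 6 filled points, 5 below 0 and Psmb9 above, and the lower panel has none.

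No change of a member with training was detected. No member was called in labelled WT mice (0% of all genes called), in labelled strNrip1-/- mice (0%) or averaged over genotype label (0.118% of all genes called). At an unadjusted limma p under 0.05 there were 1, 3 and 5 members in these comparisons, where 8.33%, 12.1% and 11.5% of all genes had such a p. The 5 of the averaged comparison were Psmg1 above 0 and Psmb8, Psmb9, Psme2 and Psmc3ip below.

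Psme2, Psmb9 and Psmb8 had the lowest training values among the proteasome genes. Psmb9 had lowest, median and highest levels of 1.22, 2.65 and 3.11 FPKM over the 6 sedentary libraries and of 1.504, 1.73 and 2.22 FPKM over the 6 trained ones (log2 difference -0.34, SE 0.119, limma adjusted p = 0.266). Psmb8 differed by -0.28 (adjusted p = 0.369) and Psme2 by -0.36 (adjusted p = 0.331), whereas Psmb10 differed by 0.059 (95% interval -0.28 to 0.40). Within labelled strNrip1-/- mice the 3 sedentary values of Psmb9 (2.96 to 3.11 FPKM) all exceeded the 3 trained ones (1.78 to 2.22 FPKM), a difference of -0.51 with an adjusted p of 0.285, where 7.5% of all genes were wholly lower. Beside them, 14 of the 19 interferon and antigen presentation genes (median -0.11), 11 of the 14 tested leukocyte markers (median -0.081) and all 5 blood markers (median -0.47) were below 0 with training, and their part was not tested.

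Psme4 differed by 0.0090 with training (95% interval -0.11 to 0.12), and Psmb5, Psmb6 and Psmb7 by -0.037, -0.038 and -0.062. All 14 genes of the alpha ring and the constitutive beta rings lay below 0, between -0.11 and -0.031, and 33 of the 48 members (68.8%, beside 48% of all genes). With an equal sum over all genes, where the median of all genes was 0.066, 8 of the 14 and 15 of the 48 were below 0. The interaction of genotype label and training was called for no member (0% of all genes), with 2 members, Psmd3 (0.22, limma adjusted p = 0.637) and Psmc3ip (-0.48, adjusted p = 0.626), at an unadjusted p under 0.05 and 7.76% of all genes so. Psmc6, next in order, had an interaction of -0.25 (adjusted p = 0.647).

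The core genes deviated together from library to library. The median deviation of the 14 core genes (alpha and constitutive beta) from their own means was 0.23 on the log2 scale in the labelled strNrip1-/- sedentary replicate 2, where 13 of 14 were above, and -0.19 in replicate 3 of that group, where none was. It was 0.14 in the labelled WT sedentary replicate 2, with 14 of 14 above. The medians over all genes lay between -0.011 and 0.0064.

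A shift of short against long transcripts moved beside this. Taking the longest GENCODE transcript of a gene, the median deviation of 3180 tested genes under 2000 bases minus that of 4516 genes of 4000 bases or more was 0.28 in the labelled strNrip1-/- sedentary replicate 2, -0.14 in replicate 3 and 0.17 in the labelled WT sedentary replicate 2. With length and GC trends removed from each library, a setting chosen after the data were seen, 23 of 48 members lay below 0 with training and the averaged genotype calls were Psme4, Psmd8, Psmb9 and Psme1. Psma3 then passed the adjusted p (0.0105) with a decrease of 0.24, under the fold limit. Without the labelled strNrip1-/- sedentary replicate 2, Psma3, Psmd8 and Psme4 were called in sedentary muscle.

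**Figure D5:**
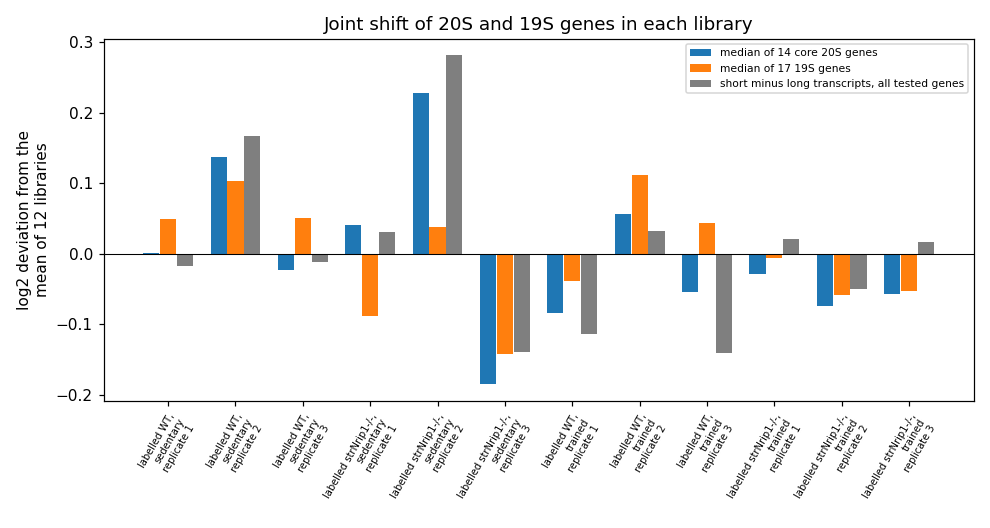
Median log2 deviation of the 14 core 20S genes and of the 17 genes of the 19S cap from each gene's mean over the 12 libraries, beside the difference between short and long transcripts over all tested genes, for each library. Replicate 2 of the labelled strNrip1-/- sedentary group has the highest core value (0.23) and replicate 3 the lowest (-0.19).

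Genes that work with the proteasome but lie outside the symbol pattern also lay mostly below 0. Of 32 listed symbols, which include old and new names of the same gene, 28 were in the table and all were tested. In the averaged genotype comparison 25 of 28 lay below 0 (median -0.10, and 18 to 26 of 28 under the 3 scalings), beside 49.2% of all genes. Of the 28, 2 were called lower and none higher, where 8.8% of all genes were called in either direction. Txnl1, a thioredoxin that binds the 19S cap, measured 94.8, 94.7 and 96.4 FPKM in labelled WT sedentary, 85.3, 91.1 and 76.7 FPKM in labelled strNrip1-/- sedentary, 88.1, 101 and 106 FPKM in labelled WT trained and 73.3, 65.9 and 70.0 FPKM in labelled strNrip1-/- trained libraries. It fell by 0.33 (SE 0.0596, limma adjusted p = 0.00438). The labels did not overlap within either training state. With length and GC trends removed the decrease was 0.25, under the fold limit.

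Ubb, a polyubiquitin gene, ranged from 584 to 742 FPKM in libraries labelled WT and from 462 to 646 FPKM in those labelled strNrip1-/-. It fell by 0.30 (limma adjusted p = 0.0279), a call lost in 9 of 12 fits that left out 1 library and, with a decrease of 0.24, under equal sums over nuclear genes. Ngly1, the glycanase that processes Nfe2l1, fell by 0.27 in trained muscle (with 19.01 to 20.4 FPKM in libraries labelled WT against 15.3 to 16.9 FPKM, adjusted p = 0.0288), a call lost in 6 of those fits and in 5 other alternatives (adjusted p = 0.0509 to 0.312), both equal sums among them.

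Nfe2l1, the factor that activates proteasome genes when the enzyme is inhibited, differed by -0.038 between labels (limma adjusted p = 0.799) and by 0.24 with training (adjusted p = 0.168). Pomp, the maturation chaperone of the 20S core, differed by -0.11 between labels (adjusted p = 0.510). Neither was called in any comparison.

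The remaining matches of the symbol pattern were low. Psmc3ip ranged from 1.36 to 3.23 FPKM and differed by -0.35 with training (limma adjusted p = 0.172). Psme2b averaged 0.551 FPKM, just inside the limit, and was listed at 0 in 3 libraries. Since it shares sequence with Psme2, reads may be split between the 2, and its difference of 0.72 between labels (adjusted p = 0.169) is uncertain for that reason. Just outside, Psmb7-ps2 lay between 0 and 0.584 FPKM and Psmb11 between 0 and 0.0563 FPKM.

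The members are spread over 16 chromosomes. Psmb8 and Psmb9 lie together in the major histocompatibility region, with 9956 bases between them and Tap1 in the interval, and Psme1 and Psme2 lie 5911 bases apart on chromosome 14. For 12 of the 48, exons overlap a gene on the opposite strand, so that reads there could belong to either.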

How the data were processed

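The authors sequenced EDL RNA in paired-end libraries without strand information, quantified it with Salmon 1.10.2 on mm10, summarized it per gene with tximport and processed it with DESeq2 1.44.0, per the methods and the submitters' processing notes in the labels. The annotation release and the function that gave the values are not given in the sources used here. The deposited FPKM values of 12 libraries were used as they stand; 8 columns of the authors' own comparisons (log2 fold changes and adjusted p) were not used, and 0 other per-sample columns were left over.

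Genes with a mean FPKM of at least 0.5 were tested with limma 3.58.1 (R 4.3.3, variance trend) on log2(FPKM + 0.5) with 4 group means, 2-sided, for 7 contrasts with Benjamini-Hochberg adjustment over 12744 genes. Fold changes are on that scale and understate those of low genes. The fit was also run on simulated data with independent noise for each gene and library. That setting lacks the joint shifts within libraries described above, so it cannot show how the fit behaves under them. The labels number the replicates without saying that they are separate mice, so p-values measure the spread between these libraries, which may be technical. Depth was recovered from 1613 genes with 1 transcript, where 99.0% to 99.7% of values came within 0.15 of a whole fragment (30% by chance). Floors cover counting error only. The closest of 12 replicate pairs shared 0 identical values above 0.

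The genes named are the called members, the catalytic genes, regulators and chaperones, the extremes of each role group, the smallest p in the averaged contrasts and the interaction, and called pathway genes. Members and lists were chosen with earlier results of these data known. Alternatives were 2 pseudocounts (0.1 and 1), 2 filters, 3 scalings, fewer libraries, a replicate block, no variance trend, removal of length and GC trends (added after the data were seen) and leaving out each library.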

Additional observations from a re-analysis of the deposited data

How the results depend on the processing

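No member was called for training or the interaction under any of the alternatives run, and the averaged genotype differences of Psme4, Psma3, Psmd8 and Psmb9 kept their direction wherever they were fitted (Psmb9 was not in the fit with a mean FPKM of at least 5). For genotype in sedentary muscle, where 1 member was called, the count was 2 with a mean FPKM of at least 5, 8 with libraries rescaled to the same sum over all genes (which moved the median of all genes by -0.14), 2 with quantile normalization and 5 with length and GC trends removed. With equal nuclear sums it stayed at 1, but the member was Psme1, higher in libraries labelled strNrip1-/-, and no longer Psme4. In trained muscle, where 2 were called, the count was 4 with a mean FPKM of at least 5 and 5 with quantile normalization. It was 1 with either equal sum, namely Psmd6 with nuclear genes and Psme1, not called in the main fit, with all genes. Leaving out 1 library gave 1 to 3 members in sedentary muscle, 1 to 4 in trained muscle and 2 to 5 in the averaged comparison, where it was 2 without replicate 1 of the labelled strNrip1-/- sedentary group. The counts of 3 and 4 came without replicate 2 of that group, and the 1 of trained muscle without replicate 3 of the labelled strNrip1-/- trained group. The averaged genotype difference of Psmb6 turned to 0.048 with equal nuclear sums, and that of Psmb5 to -0.044 with equal sums over all genes, -0.017 with quantile normalization and -0.040 with length and GC trends removed; leaving out 1 library gave -0.043 to 0.065 for Psmb5 and -0.084 to 0.050 for Psmb6. As a ratio of geometric means, immunoproteasome over constitutive transcripts came to 2.91% and 3.86% in sedentary libraries labelled WT and strNrip1-/-, and to 2.70% and 3.25% in trained ones. The summed ratio without 1 library came to 3.89% to 4.69%, 4.91% to 5.24%, 4.07% to 4.41% and 4.89% to 5.10% in that order. Deviations of same-numbered libraries correlated at -0.105 to 0.241, with 5 of 18 pairs over 0.1. Differently numbered pairs were not set beside them, so whether replicate numbers pair libraries was not tested. The replicate block left 1, 2 and 4 members called for genotype in sedentary, in trained and averaged. The cause of these changes was not tested. With 3 libraries a group, small shifts of single subunits could often not be resolved. Psmd6 and Psmd1, which changed by less than 1.2-fold, did pass the adjusted p in the averaged comparison.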
